A study of Homo sapiens with 4 samples.

Results

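The open chromatin of 10 apolipoprotein genes, APOA1, APOA2, APOA4, APOA5, APOB, APOC1, APOC3, APOE, APOH and APOM, was described in 4 ATAC-seq peak lists of Huh7 cells. ATAC-seq marks accessible DNA by letting a transposase insert sequencing adapters into it, and Huh7 is an established human liver cancer line. A peak belonged to these genes if the authors named a member as its nearest gene or if its centre lay within 20 kb of a member's transcription start site (TSS), whatever its height. Among shControl cells this gave 26 of 52192 peaks with DMSO and 25 of 49783 with rapamycin. Among shARID1A cells it gave 21 of 45700 peaks with DMSO and 24 of 44760 with rapamycin. Merged where they overlapped, they formed 29 of 69838 regions. shControl cells carried a control short hairpin RNA, and shARID1A cells carried 1 against ARID1A, a DNA-binding subunit of the SWI/SNF chromatin remodeller. Treatment lasted 6 h and consisted of rapamycin at 100 nM, which blocks the growth-promoting kinase complex mTORC1, or of its solvent DMSO. Each of the 4 groups held 1 library from 50000 cells, so replicate error was unknown and no test was made. The labels give neither the hairpin sequence nor whether a cell population was a clone. All coordinates are on GRCh38.

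Read depth was unknown, and the lists differed in length. The authors' peak numbers skipped 1093 values in shControl rapamycin and 6666 in shARID1A DMSO, and none in the other lists. No difference in the members' peaks described here fell where the other list skipped a number. Of 10 hepatocyte markers, 4, 4, 5 and 5 had a promoter peak, with shControl before shARID1A and, within each, DMSO before rapamycin. HNF4A, SERPINA1 and TF were among those with one in all lists, ALB, AFP, FGB and FOXA2 had one in none, AHSG had one in shARID1A DMSO alone and TTR in shARID1A rapamycin alone. Of other cell types, 0 of 4 endothelial markers had a promoter peak in any list. In the same order, the counts were 3, 2, 2 and 2 of 6 for leukocytes, 1, 1, 2 and 1 of 4 for fibroblasts and stellate cells, and 1 of 3 in each list for macrophages. Over all 19489 protein-coding genes used, the counts were 12514, 12593, 12717 and 12547, a larger share than for the hepatocyte markers in each list. The marker counts therefore do not identify the cell type. The markers that differed between lists were CD3D of T cells, with a peak in shControl DMSO alone, and the fibroblast genes LUM, which lacked one in shARID1A rapamycin alone, and COL1A1. The COL1A1 peak met the 1 kb limit in both shARID1A lists, and both shControl lists held an overlapping peak centred farther out. Of enterocyte genes, markers of the gut cells that also make apolipoproteins, VIL1 had a promoter peak in all lists and FABP2, LCT and SI had none.

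Apolipoproteins are the protein coat of the particles that carry lipid through blood, and the liver secretes most of them. APOB is the structural protein of very-low-density and low-density lipoprotein, and APOA1 and APOA2 are the main proteins of high-density lipoprotein. APOC3 slows and APOA5 promotes the clearance of triglyceride-rich particles, and APOE is the ligand by which remnant particles are taken up. In the genome APOA5, APOA4, APOC3 and APOA1 lie together on chromosome 11, and APOE and APOC1 on chromosome 19, where genes of a cluster are known to share enhancers. The nuclear receptor HNF4A is a known activator of many of them in liver.

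The promoters of APOC1, APOH, APOA2 and APOA4 show how differently the members' start sites related to their peaks. Each is the RefSeq sequence (GRCh38.p14) of the 250 bases before an annotated TSS, 5' to 3' on the strand of the gene. Capitals mark matches to short motifs described in the next paragraph. The first pair lies inside the promoter peaks and the other pair lies outside every peak of every list.

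APOC1: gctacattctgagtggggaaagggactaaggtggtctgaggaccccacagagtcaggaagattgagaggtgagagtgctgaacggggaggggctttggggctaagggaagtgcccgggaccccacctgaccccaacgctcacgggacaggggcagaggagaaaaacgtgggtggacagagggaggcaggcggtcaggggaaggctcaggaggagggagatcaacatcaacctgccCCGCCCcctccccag
APOH: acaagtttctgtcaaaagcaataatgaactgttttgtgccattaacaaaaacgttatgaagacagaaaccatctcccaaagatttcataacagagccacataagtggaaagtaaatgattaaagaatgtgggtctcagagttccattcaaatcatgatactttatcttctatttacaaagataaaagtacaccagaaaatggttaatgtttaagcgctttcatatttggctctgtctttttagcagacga
APOA2: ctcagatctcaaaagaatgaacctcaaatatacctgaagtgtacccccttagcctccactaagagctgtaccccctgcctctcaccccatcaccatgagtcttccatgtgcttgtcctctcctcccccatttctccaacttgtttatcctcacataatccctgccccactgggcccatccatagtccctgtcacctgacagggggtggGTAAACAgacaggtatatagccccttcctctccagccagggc
APOA4: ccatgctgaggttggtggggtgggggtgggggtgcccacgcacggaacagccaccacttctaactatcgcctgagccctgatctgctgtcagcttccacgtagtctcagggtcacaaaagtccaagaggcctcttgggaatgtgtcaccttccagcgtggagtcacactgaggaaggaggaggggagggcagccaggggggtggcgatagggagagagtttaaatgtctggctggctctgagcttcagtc

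The APOC1 sequence (plus strand, chr19:44914422-44914671) lay entirely within a peak in all 4 lists. The APOH sequence (minus strand, chr17:66229416-66229665) lay within a peak over all 250 bases in 3 lists and over 190 bases in shARID1A DMSO. The APOA2 sequence (minus strand, chr1:161223629-161223878) and the APOA4 sequence (minus strand, chr11:116823305-116823554) shared 0 bases with any peak. RefSeq promoters were at hand for 7 of the 10 members, with more than 1 start for APOA5 and APOE, and none for APOA1, APOB and APOC3. In these 10 sequences the forkhead-type motif TGTTTAC was found at APOA2, at -42 from the TSS, and is present in 2.98% of all 35116 promoters of the same length. The AP-1-type motif TGANTCA was found once, at APOA5 (6.57% of all promoters), and the Sp1-type motif GGGCGG in 2 sequences, at APOC1 and APOE (42.6%). CAAAGTCCA (HNF4-type, 0.325%), TTGCGCAA (C/EBP-type, 0.131%), the core promoter box TATAAA (6.8%) and a nuclear receptor direct repeat spaced by 1 base (0.0171%) had no match in any of the 10. Both strands were searched, except for TATAAA, and matches of different motifs did not overlap. An exact match is a description of letters and not a binding site.

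The members' promoters were poor in CpG, the dinucleotide that is dense at housekeeping promoters. Taking for each gene its promoter with the most CpG, the 7 members held between 0 (APOA2) and 11 (APOE) CpG in 250 bases, with a median of 5, against a median of 19 over 15843 protein-coding genes. Their median GC content was 53.6%, against 64.0%. Among all genes with 3 to 7 CpG, 23.0% had a promoter peak in all 4 lists, compared with 84.1% of genes with 15 or more. Of the 5 members with 3 to 7 CpG, APOC1 and APOH had one in all lists, APOA5 in 3 and APOA4 in none. The fifth, APOM, had a peak in all lists at another start than the one whose CpG was counted, and that promoter had none. In this class 10.4% of all genes had a promoter peak in some lists only. APOE had one in all lists, as had 59.4% of genes with 8 to 14 CpG. APOA2 had one in some lists, as had 7.41% of genes with 0 to 2 CpG, of which 8.8% had one in all lists.

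A promoter peak, with its centre within 1 kb of a TSS, was present at 8 of 10 members in shControl DMSO and in shARID1A rapamycin, and at 9 in the other lists. APOA1, APOB, APOC1, APOC3, APOE, APOH and APOM had one in every list. APOA2 lacked one in shControl DMSO, APOA5 lacked one in shARID1A rapamycin, and APOA4 had none in any list. Over all 19489 protein-coding genes used, 61.1% had a promoter peak in every list, 31.7% in none and 7.22% in some lists, against 7, 1 and 2 of the 10 members. These shares are a description and set nothing apart for the members.

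Ranks follow the deposited score of each peak within its own list and are given as percent of list length, with 0 the strongest. Lists of different length are set side by side, and no change is read from ranks. The median rank of the members' promoter peaks was 40.6% (DMSO) and 50.2% (rapamycin) in shControl, and 52.1% (DMSO) and 34.5% (rapamycin) in shARID1A. All promoter peaks had medians between 18.8% and 19.2% in the 4 lists, so the members' median stood lower in each list than that of promoter peaks as a whole. The members differed among themselves: APOM and APOC1 ranked above the median of all promoter peaks in every list, and APOB, APOE, APOC3, APOA5, APOA1, APOA2 and APOH below it in every list in which they had a peak.

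**Figure D1:**
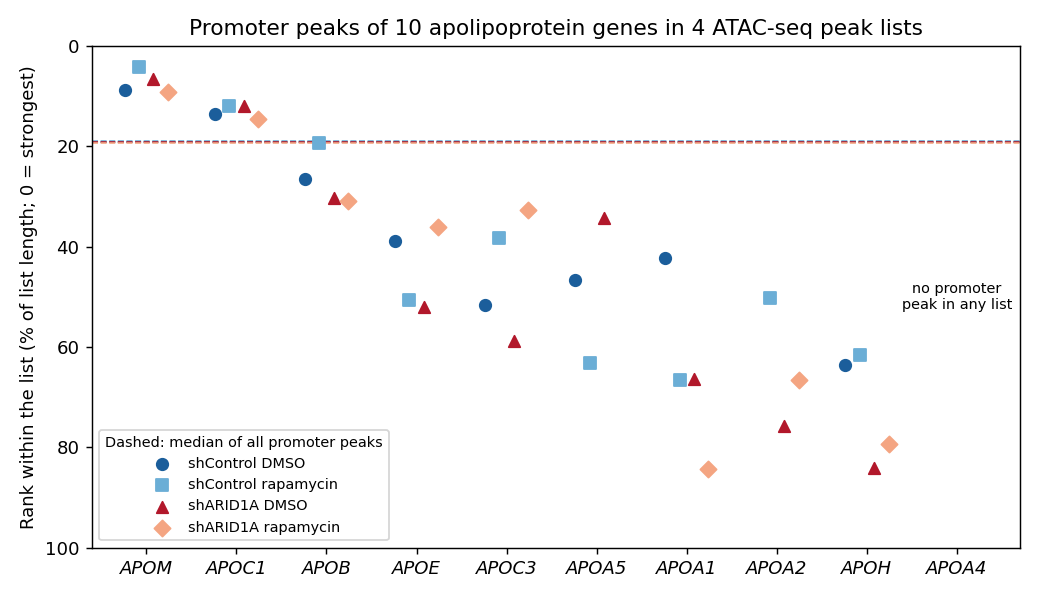
Rank of each member's promoter peak within its list (percent of list length, 0 at the top is the strongest), with 1 symbol per list and dashed lines at the median of all promoter peaks of each list. APOM and APOC1 lie above the dashed lines, APOH lies between 61.7% and 84.2%, and APOA4 has no promoter peak.

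APOB had the longest promoter peaks among the members other than APOE in shARID1A rapamycin. The peak ran over 1961 bp in shControl DMSO (chromosome 2, 21042260 to 21044221), 2146 bp in shControl rapamycin, 1998 bp in shARID1A DMSO and 2232 bp in shARID1A rapamycin. It covered the TSS at 21044073 in all lists and extended into the gene, and the authors annotated it to intron 2. An enhancer in the second intron of APOB is known from earlier work, and the files hold nothing that places it within the peak. The ranks were 26.5%, 19.4%, 30.3% and 30.8%, with shControl before shARID1A and DMSO before rapamycin, the order of all ranks that follow. The shControl DMSO peak lay entirely within that of each other list.

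Upstream of APOB, 4 distal regions were found in at least 2 lists. The region about 12 kb upstream was present in all lists, as 1 peak in shControl DMSO (21056216 to 21057314, rank 43.2%), shARID1A DMSO (21055599 to 21057026, 87.4%) and shARID1A rapamycin (21055895 to 21056644, 78.5%). In shControl rapamycin it was split into 2 peaks, 21056174 to 21056700 (49.7%) and 21057054 to 21057584 (75.3%). The region about 27 kb upstream was also present in all lists, at ranks of 47.0%, 38.3%, 63.2% and 71.0%. Between them, a region about 24 kb upstream was listed in both shControl lists (21067279 to 21068211 in DMSO, 59.1%, and 21067260 to 21068225 in rapamycin, 64.6%) and in neither shARID1A list. Both of its peaks ranked in the weaker part of their lists.

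The region about 8 kb upstream of APOB had the opposite presence in the 2 genotypes. It was listed in shControl DMSO (21052145 to 21052442, rank 48.9%) and shARID1A rapamycin (21052122 to 21052434, 60.1%), and was absent from shControl rapamycin and shARID1A DMSO. With rapamycin it was therefore lost in shControl and gained in shARID1A, and the share of all regions with this presence is not given. Its peaks were short, at 297 and 312 bp. A weak region inside the gene, annotated to intron 15 (21025592 to 21026083), was listed in shARID1A rapamycin alone, at 83.2%.

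**Figure D2:**
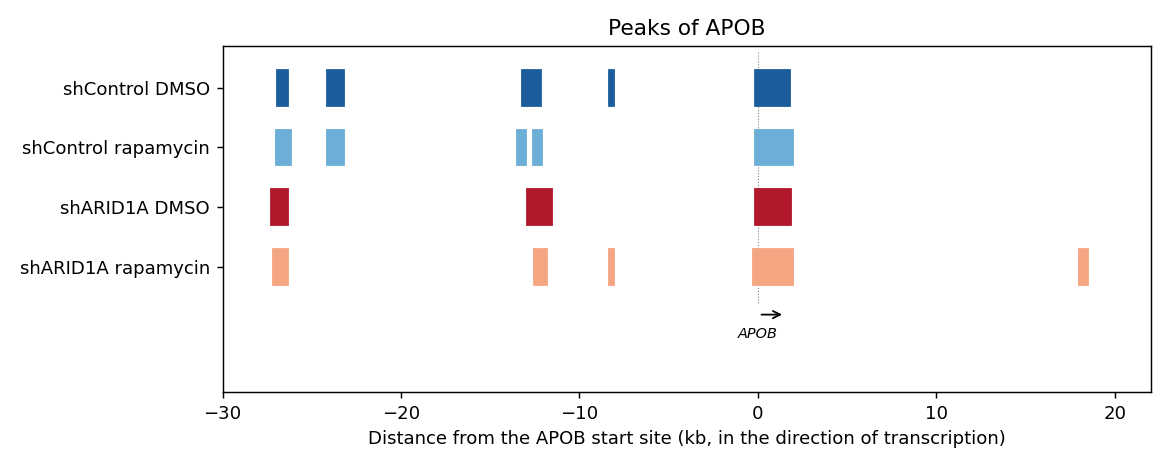
Peaks of APOB in the 4 lists, drawn to scale by distance from the APOB start site in kb in the direction of transcription, with the arrow at the start site. The promoter peak and the regions about 12 and 27 kb upstream are present in all lists, the region about 24 kb upstream in both shControl lists, and the region about 8 kb upstream in shControl DMSO and shARID1A rapamycin.

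APOA1 had a promoter peak in every list, and its position varied more than that of APOB. It covered the TSS at 116837622 on chromosome 11 in shControl DMSO (116837367 to 116838013), shControl rapamycin (116836981 to 116837919) and shARID1A DMSO (116836613 to 116837967). In shARID1A rapamycin the peak was 500 bp long, began 43 bp upstream of the TSS (116837665 to 116838165) and overlapped that of shControl rapamycin by 255 bp. The ranks were 42.3%, 66.7%, 66.3% and 84.2%. A distal region in intron 6 of the kinase gene SIK3, centred at -51513 bp from the APOA1 TSS in shControl DMSO, was assigned to APOA1 by the authors' nearest-gene column. It was listed in shControl DMSO, shControl rapamycin and shARID1A DMSO at 63.4%, 80.1% and 81.1%. The shARID1A rapamycin list had a peak next to it (116889690 to 116890096, 85.8%) that overlapped none of these, so a lost and a gained peak were counted at neighbouring positions.

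The peak of APOA2 lay upstream of its start rather than on it. It was listed in shControl rapamycin (chromosome 1, 161224130 to 161224853, rank 50.2%), shARID1A DMSO (161223999 to 161224505, 75.8%) and shARID1A rapamycin (161224007 to 161224925, 66.6%). Its near edge was 502, 371 and 379 bp from the TSS at 161223628. No peak overlapped it in shControl DMSO, a list without skipped numbers. In the APOA2 window the promoter of the neighbouring gene TOMM40L was present in all lists, at 44.9%, 36.8%, 28.4% and 28.9%. A region in intron 1 of FCER1G, an immune receptor subunit gene, was present in all lists, at 79.2%, 48.2%, 94.0% and 83.5%.

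On chromosome 11 the promoter peak of APOC3 was present in all lists and lay upstream of the TSS at 116829907. It ran from 116829217 to 116829855 in shControl DMSO, 116828952 to 116829862 in shControl rapamycin, 116828644 to 116830009 in shARID1A DMSO and 116828976 to 116829872 in shARID1A rapamycin. Only the shARID1A DMSO peak covered the TSS, and the others ended 35 to 52 bp before it. The ranks were 51.6%, 38.3%, 58.9% and 32.8%. The stretch just upstream of APOC3 is known as an enhancer of this cluster in liver and gut.

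APOA5 had a peak within the gene, downstream of both RefSeq starts (116791879 and 116792420). It was listed in shControl DMSO (116791196 to 116791752, rank 46.6%), shControl rapamycin (116791202 to 116791731, 63.2%) and shARID1A DMSO (116791202 to 116791644, 34.2%). The shARID1A DMSO peak lay within both others. The shARID1A rapamycin list, whose numbers had no gap, held no peak there. It was the strongest of the member peaks that shARID1A DMSO had and shARID1A rapamycin lacked.

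APOA4, whose product is made mainly in the gut, had no peak within 1 kb of its TSS at 116823304 in any list. The nearest peak in shControl DMSO lay between APOA4 and APOC3 (116826390 to 116827004, rank 59.6%) and had no counterpart in the other 3 lists. A second peak listed in shControl DMSO alone lay at the start of the gene AP006216.2 (116813551 to 116814342, 79.9%). Between APOA5 and APOA4, an intergenic region was present in all lists (116808153 to 116809378 in shControl DMSO), at 42.0%, 51.0%, 58.3% and 84.3%.

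Over the chromosome 11 cluster, peaks outside the members' own promoters numbered 6 in shControl DMSO and 4 elsewhere. Of these, 3, 2, 2 and 2 lay at promoters of other genes. The promoters of BUD13 and ZPR1, genes of RNA splicing and cell growth on the far side of APOA5 from APOA4, were present in all lists. BUD13 ranked 14.9%, 9.95%, 10.5% and 15.5% and was stronger than any apolipoprotein promoter of the cluster in each list. ZPR1 ranked 48.7%, 33.0%, 42.8% and 36.7%, within the range of the cluster's own promoters in 3 lists and above it in shControl rapamycin.

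**Figure D3:**
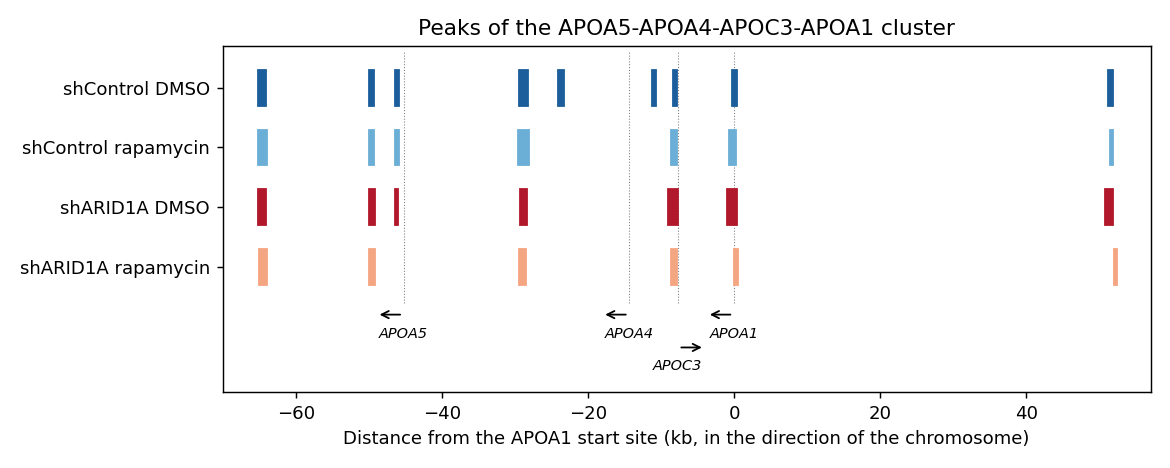
Peaks of the chromosome 11 cluster in the 4 lists, drawn to scale by distance from the APOA1 start site in kb along the chromosome, with arrows at the gene starts. The peak inside APOA5 is missing from shARID1A rapamycin, and the 2 peaks between APOA5 and APOC3 that were found in shControl DMSO alone stand on both sides of the APOA4 start.

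On chromosome 19 APOC1, a small exchangeable apolipoprotein of several particle types, had a promoter peak with nearly the same edges in each list. It ran from 44914079 to 44915426 in shControl DMSO, 44914081 to 44915426 in shControl rapamycin, 44914222 to 44915448 in shARID1A DMSO and 44914156 to 44915456 in shARID1A rapamycin. The ranks were 13.6%, 11.9%, 11.9% and 14.5%. It covered a RefSeq start in every list.

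APOE had a promoter peak in every list, at ranks of 38.9%, 50.7%, 52.1% and 36.2%. It lay at 44905205 to 44906527 in shControl DMSO, 44904968 to 44906553 in shControl rapamycin and 44905333 to 44906570 in shARID1A DMSO. In those 3 lists a separate peak stood just upstream, at the end of TOMM40 (44903740 to 44904522 in shControl DMSO), at 30.8%, 37.1% and 29.5%. In shARID1A rapamycin a single peak of 2840 bp (44903720 to 44906560) covered both. The lower number of peaks outside the members' promoters in that list, 2 against 3 in the others, was thus a joined peak and not a missing region.

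The remaining regions of the chromosome 19 window were present in all lists. The promoter of TOMM40, which encodes the channel for protein import into mitochondria, ranked 0.243%, 0.741%, 0.558% and 0.505%, far above the APOE promoter in the same lists. An intergenic region between APOC1 and its pseudogene APOC1P1 lay about 10 kb downstream of the APOC1 start (44924084 to 44925111 in shControl DMSO), at 31.0%, 42.0%, 41.9% and 63.7%. The hepatic control region, an enhancer of this cluster in liver, is known to lie between these genes, but its coordinates were not at hand. Just outside the window, 21.3 kb from APOC1 in shControl DMSO, a further intergenic region near APOC4 was present in all lists (44935559 to 44936399 in shControl DMSO), at 20.6%, 25.9%, 34.2% and 29.4%. It ranked above the promoter peak of APOE in each list. The non-member peaks farthest inside the 20 kb window were those of BUD13, at 18.8 or 18.9 kb. The nearest peak outside the window was the APOC4 region in both DMSO lists. In shControl rapamycin it was a weak peak at the start of AC010872.1, 20.9 kb from the APOB start (99.2%).

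**Figure D4:**
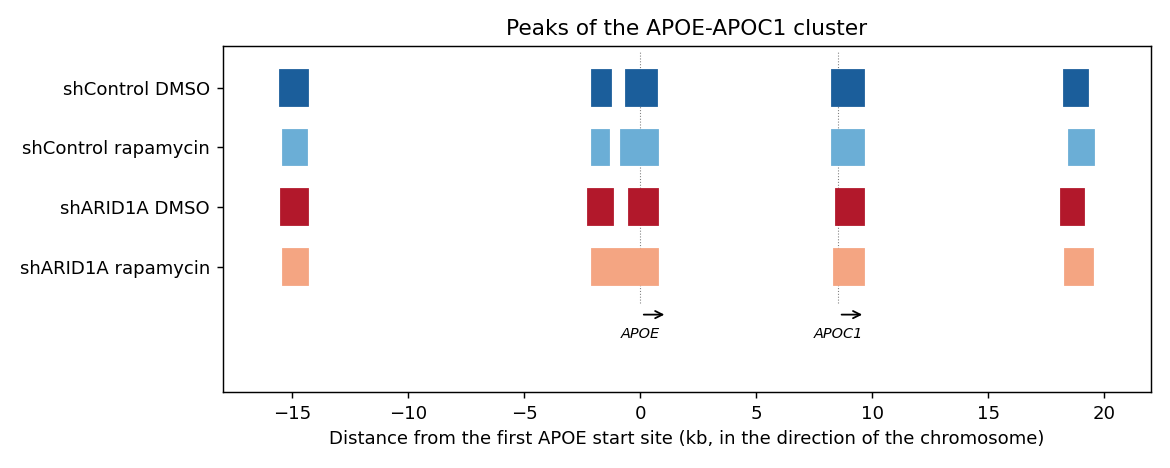
Peaks of the chromosome 19 cluster in the 4 lists, drawn to scale by distance from the first APOE start site in kb along the chromosome, with arrows at the starts of APOE and APOC1. All regions are present in every list, and in shARID1A rapamycin a single peak of 2840 bp spans the end of TOMM40 and the APOE promoter.

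APOH encodes a plasma protein that binds phospholipids. Its promoter peak covered the TSS at 66229415 on chromosome 17 in all lists and was the only peak in its window. It ran over 968, 1014, 421 and 651 bp and ranked 63.7%, 61.7%, 84.2% and 79.3%. It was the weakest member promoter peak in shControl DMSO and shARID1A DMSO, and that of APOA1 was the weakest in the other lists.

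APOM encodes a lipocalin carried on high-density lipoprotein. Its peaks, at 8.83%, 4.25%, 6.50% and 9.16%, were the strongest of the members, but they lay at the promoter of the chaperone gene BAG6 (chromosome 6, 31651901 to 31653172 in shControl DMSO). The authors named APOM as the nearest gene in shControl DMSO and shARID1A rapamycin and BAG6 in the other lists. RefSeq has an APOM start inside this peak, at 31652404. The start at 31655894, whose promoter is in the RefSeq table, had no peak within 1 kb in any list. The APOM window also held the promoter region of GPANK1 and CSNK2B in all lists, at ranks between 5.07% and 6.98%. A region at C6orf47 was listed in shControl DMSO, shControl rapamycin and shARID1A rapamycin, at 40.1%, 38.5% and 47.1%, and not in shARID1A DMSO. A peak at the end of PRRC2A was listed in shARID1A rapamycin alone, at 85.8%.

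The comparison of shARID1A with shControl in DMSO asked which of these regions differed with the knockdown alone. Of 26 member peaks 6 were lost, meaning that no shARID1A peak overlapped them by at least 1 bp, and over all peaks 27.6% were lost. Of the 11 distal ones, those over 1 kb from any TSS by the authors' distance, 4 were lost, against 34.9% of all distal peaks. Among the lost peaks were the APOB regions about 8 and 24 kb upstream, the peak between APOA4 and APOC3, and the peaks at C6orf47 and AP006216.2. The lost peaks ranked between 40.1% and 79.9% in shControl DMSO. Of 21 shARID1A peaks 1 was gained, the APOA2 peak, against 17.7% of all peaks, and 0 of 7 distal ones, against 22.1%. At gene level 0 of 8 members lost a promoter peak (2.49% of all genes with one did) and 1 of 9 gained one (4.04%).

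The same comparison under rapamycin used the other pair of libraries. Of 25 member peaks 4 were lost, against 26.7% of all peaks, and 3 of the 10 distal ones, against 33.8%. These were the peak inside APOA5, the APOB region about 24 kb upstream, the outer of the 2 peaks into which the APOB region about 12 kb upstream was split, and the SIK3 intron peak. Of 24 shARID1A peaks 4 were gained, against 17.9%, all of them among the 12 distal ones, against 23.0%. The 12 include the APOA2 and APOC3 promoter peaks of that list, which the authors' distances place over 1 kb from a start. Gained were the APOB region about 8 kb upstream, the peak in APOB intron 15, the peak at PRRC2A and the shifted SIK3 peak. At gene level 1 of 9 members, APOA5, lost its promoter peak (3.18% of all genes with one did) and 0 of 8 gained one (2.82%). The APOB region about 24 kb upstream was lost in both treatments, and its peaks were the only member peaks with that presence.

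Rapamycin was compared with DMSO within each genotype, and these comparisons share libraries with those above. In shControl cells 3 of 26 member peaks were lost, against 21.7% of all peaks, 2 of them among the 11 distal ones, against 27.0%. They were the APOB region about 8 kb upstream and both peaks found in shControl DMSO alone on chromosome 11. The APOA2 peak was the 1 of 25 that was gained, against 18.5%, and 0 of 10 distal peaks were gained, against 23.0%. At gene level 0 of 8 members lost a promoter peak (2.84%) and 1 of 9 gained one (3.45%).

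In shARID1A cells rapamycin was accompanied by the loss of 2 of 21 member peaks, against 21.2% of all peaks, the APOA5 peak and the SIK3 intron peak. The latter was the 1 of 7 distal peaks lost, against 27.1%. Gained were 6 of 24, against 19.3%, with 5 among the 12 distal ones, against 25.2%. Among them were the peak at C6orf47, the APOB region about 8 kb upstream, the peak in APOB intron 15, the peak at PRRC2A and the shifted SIK3 peak. At gene level 1 of 9 members lost a promoter peak, APOA5 (3.44%), and 0 of 8 gained one (2.14%).

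Across the 4 lists, 17 of the 29 regions were present in every list, against 45.2% of all 69838 regions. Of the 9 regions at members' promoters 7 were in every list, against 81.8% of all promoter regions, and of the 13 distal regions 5, against 34.5% of all distal regions. Of the members' distal regions, 4 were found in 1 list, 2 in 2 lists and 2 in 3 lists. The matching shares of all distal regions are not given. The peaks of the members' distal regions, and of the separate TOMM40-end peak, had median ranks of 48.9%, 50.4%, 63.2% and 80.8%, and all distal peaks of 58.5%, 59.2%, 59.7% and 60.4%. These medians rest on 11, 10, 7 and 10 peaks, and stood higher than that of all distal peaks in both shControl lists and lower in both shARID1A lists. The sets of peaks differed between lists, so no change is read from these medians. Only shARID1A rapamycin had the peaks in APOB intron 15 (83.2%), at PRRC2A (85.8%) and beside the SIK3 peak (85.8%), and it had no separate TOMM40-end peak.

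**Figure D5:**
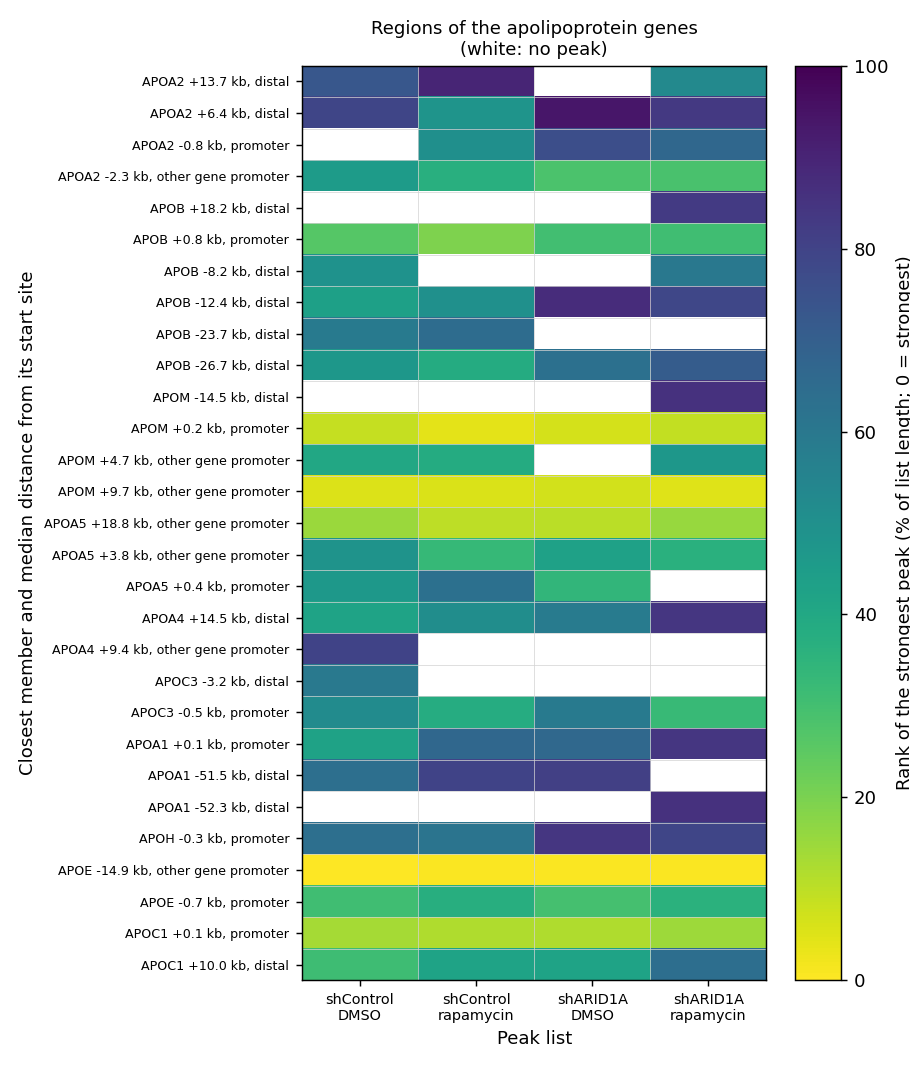
Presence of the 29 regions in the 4 lists, labelled by the closest member and the median distance from its start site, with the colour giving the rank of the strongest peak (percent of list length) and white marking no peak. The rows that are filled in all 4 columns are the 17 regions present in every list, and most of the incomplete rows are distal.

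Genes that act with the apolipoproteins were examined at their promoters for comparison. Of 35 genes of lipoprotein assembly, remodelling and uptake 24 had a promoter peak in every list (61.1% of all genes), 8 in none (31.7%) and 3 in some (7.22%). LCAT, the enzyme that esterifies cholesterol on high-density lipoprotein with APOA1 as its activator, had one in shControl DMSO (93.2%) and shControl rapamycin (73.5%) and in neither shARID1A list, where no number was skipped at its place. ABCG5 and ABCG8, which share a promoter and encode a sterol exporter, had a weak peak in shControl rapamycin (93.4%) and shARID1A DMSO (83.1%). LPL, ANGPTL8, CETP, ABCG1, CUBN, GPIHBP1 and LRP8 were among those with no promoter peak in any list.

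Of 25 regulators of apolipoprotein genes 20 had a promoter peak in every list (61.1% of all genes), 1, FOXA2, in none (31.7%) and 4 in some (7.22%). NR1H4, the bile acid receptor, had one in shControl DMSO (73.5%) and shControl rapamycin (92.9%) alone. The peak of RORA, a nuclear receptor, met the 1 kb limit in both shControl lists, at 75.5% and 64.8%, and both shARID1A lists held an overlapping peak centred farther out. RXRA, the partner of many nuclear receptors, had one in shControl rapamycin (95.5%) and shARID1A DMSO (81.3%), and NR2F2, a nuclear receptor that can repress apolipoprotein promoters, in shARID1A DMSO (70.8%).

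Of 11 other apolipoprotein genes 3 had a promoter peak in every list (61.1% of all genes) and 7 in none (31.7%), among them APOC2 and APOC4 of the chromosome 19 cluster. APOL1, an apolipoprotein of innate immunity, had one in shControl DMSO (81.6%) and shControl rapamycin (87.2%), and shARID1A DMSO skips a number at its place. Of 30 genes of other secreted plasma proteins 14 had a promoter peak in every list (61.1% of all genes), 13 in none (31.7%) and 3 in some (7.22%). The members' counts were 7, 1 and 2 of 10. The 3 plasma protein genes with a peak in some lists were AHSG, encoding fetuin-A, in shARID1A DMSO (95.2%), HP, encoding haptoglobin, in shControl DMSO (87.9%), and TTR, encoding transthyretin, in shARID1A rapamycin (54.2%). At TTR the shControl rapamycin list skips a number.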

How the data were processed

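Open chromatin was measured by ATAC-seq in 4 Huh7 libraries, 1 per group, per the labels. The submitters' processing notes name BWA, MACS2 2.0 and GRCh38 (hg38), without settings. Each deposited list gives, per the file headers, the position, annotation, nearest gene, distance to the TSS and a score of each peak. The score is the authors' own value, its scale is not given, and it was used to rank peaks within a list, ties taking the better rank. Read depth and the handling of duplicates and of the transposase offset were not given in the sources used here.

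Start sites came from RefSeq (GRCh38.p14): the promoter table and the gene end on that strand for 15842 genes, and the gene end with a strand read from the authors' distances for 2552 genes, among them APOA1, APOB and APOC3. Genes without a strand counted as lacking a promoter peak if no peak lay within 2 kb of either end (1095 genes), and 548 others were left out. Peaks overlapping by at least 1 bp were shared. Overlap, skip and promoter calls were tested on a copy of the shControl DMSO list with peaks removed and the rest shifted slightly. Test start sites stood on peak centres, so the test does not cover real start sites, strands or shifts between libraries. No p-value was computed. Members and gene lists were chosen with earlier results of these data known. All 10 members are named, and of the other lists the genes whose promoter presence differed between lists. PROX1, MIA2, APOF and CLU of the gene lists were among the genes left out. A few genes and the results that need them are not reported here. Computations used Python 3.11.15, pandas 2.3.3, NumPy 2.4.6, SciPy 1.17.1 and matplotlib 3.10.9.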

Additional observations from a re-analysis of the deposited data

Results flagged for a closer look

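The region about 8 kb upstream of APOB (chromosome 2, 21052122 to 21052442) differed in opposite directions with rapamycin in the 2 genotypes. It was listed in shControl DMSO, at a rank of 48.9% of the list, and absent from shControl rapamycin, while it was absent from shARID1A DMSO and listed in shARID1A rapamycin at 60.1%. Over all distal peaks, rapamycin lost 27.0% in shControl and gained 25.2% in shARID1A. The share of all regions with this combined presence is not given, so the flag does not set the region apart. With 1 library per group the difference was not tested. Neither list without the peak skipped a peak number at its place.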

How the results depend on the processing

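Of 192 recomputed values 137 stayed within 1.5 times the reported one. All those with each list reduced to its 44760 best-ranked peaks, with a promoter width of 2 kb, with the 20 kb window without the nearest-gene column, and without differences at skipped numbers did so. The 32 values with 44760 peaks and the 28 without skipped-number differences could not move, so they show no robustness. Every member peak ranked within the best 44760 (weakest at 44677, in shControl rapamycin), and no member difference lay at a skipped number. Depth is unknown, so a missing peak may lie just under the authors' threshold. Values go from shControl to shARID1A and, within each, from DMSO to rapamycin. By nearest gene alone the members had 15, 14, 12 and 12 peaks. Within 50 kb they had 42, 39 and 36 peaks in the first 3 lists, and the chromosome 19 cluster had 6, 6, 6 and 4 peaks outside the members' promoters, those of other genes included. With 50 kb, the knockdown in DMSO lost 10 of 42 peaks (27.6% of all peaks were lost) and gained 4 of 36 (17.7%). The knockdown under rapamycin lost 8 of 39 (26.7%). Rapamycin in shControl lost 7 of 42 (21.7%) and gained 3 of 39 (18.5%), and rapamycin in shARID1A lost 6 of 36 (21.2%). Within 10 kb, the knockdown under rapamycin gained 2 of 17 (17.9% of all peaks) and rapamycin in shARID1A gained 3 of 17 (19.3%). Outside the members' promoters, the chromosome 11 cluster then had 2 peaks in each of the last 3 lists, and the chromosome 19 cluster had 1 in shControl rapamycin and 0 in shARID1A rapamycin. In these rapamycin lists the peak beside APOC1P1 was present but centred 10149.5 bp (shControl) and 10043.5 bp (shARID1A) from the APOC1 start, just past 10 kb. In shARID1A rapamycin the TOMM40-end peak was joined to that of APOE. If 50% of the shorter peak had to overlap, rapamycin in shControl gained 2 of 25 peaks, and the share over all peaks at that setting is not given.

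With a promoter width of 500 bp, or with a peak that covers the TSS, 5 members had a promoter peak in shARID1A rapamycin. At 500 bp the APOA2 peaks no longer counted. Those of APOB did not count either, with centres 832.5 to 917 bp from the TSS, although they covered it in all lists. The knockdown in DMSO then lost 1 of 7 and gained 0 of 6 promoter peaks, and the knockdown under rapamycin lost 2 of 7. Rapamycin gained 0 of 7 in shControl, and in shARID1A it lost 2 of 6 and gained 1 of 5. The peak lost in DMSO was that of APOC3, and 1 of the 2 lost with knockdown under rapamycin was that of APOE. In both cases the shARID1A peak covered a TSS, but its centre lay farther than 500 bp from it, at -580.5 and -656 bp. In the stronger 50% of each list, 4, 4 and 5 members in the last 3 lists had a promoter peak, and those lists held 15, 11 and 11 member peaks. Promoter peaks lost and gained with knockdown were then 2 of 6 and 0 of 4 in DMSO, and 0 of 4 and 1 of 5 under rapamycin. Rapamycin lost 3 of 6 in shControl and gained 2 of 5 in shARID1A. Of all member peaks in the stronger 50%, knockdown gained 0 of 11 in DMSO and 0 of 11 under rapamycin. Rapamycin lost 5 of 18 and gained 2 of 15 in shControl, and gained 2 of 11 in shARID1A. Outside the members' promoters, the chromosome 11 cluster had 3, 2, 2 and 2 such peaks, and the chromosome 19 cluster had 1 in shARID1A rapamycin. Apart from the moved centres and the smaller numbers of peaks that a stricter setting leaves, the cause of these shifts was not tested. Shares over all genes or peaks at the 500 bp and stronger 50% settings are not given, and those stated earlier belong to other settings. The counts in this paragraph therefore set nothing apart for the members.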
